A study of Mus musculus with 8 samples.

Results

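The genes of G2, the spindle and mitosis are 51 mouse genes named by their roles in cell division, and their probes were taken by annotated gene symbol, older names included. Of these, 44 had a probe on the array, out of 16593 genes with a symbol there, and they shared 65 probes. Ccnb1, Aurkb, Mki67, Cenpf, Racgap1, Tacc3 and Smc4 were not analysed here. The arrays compared primary vascular smooth muscle cells of the male mouse carotid artery, C57bl6 background, that were wild type or knockout for PMCA4, the plasma membrane calcium pump encoded by Atp2b4. All cells of both genotypes were synchronised with serum, then given serum and PDGF-BB (platelet-derived growth factor BB, a mitogen of smooth muscle), and sorted on Hoechst DNA stain for early G1. There were 4 bead arrays per genotype. Age and the design of the allele are not in the labels. Nor do they state whether the 4 arrays of each genotype trace to different animals or cultures, and the spread that the p-values measure may therefore be technical.

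Cells enter mitosis when cyclin A and B bound to the kinase Cdk1 reach high activity, and they leave it when the anaphase promoting complex, with its activator Cdc20, marks the cyclins and securin for destruction. Between these steps a bipolar spindle of microtubules and kinesin motors attaches chromosomes through their kinetochores, the Aurora B passenger complex corrects faulty attachments, and a contractile ring divides the cell. Transcripts of these genes usually peak in G2 and M and are low in G0 and early G1, where the DREAM complex represses their promoters through the CHR element, often beside CCAAT boxes bound by NF-Y. Later in the cycle the MuvB core of that complex joins B-Myb (Mybl2) and Foxm1 on the same promoters as activators.

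Promoter windows from the RefSeq tables (GRCm38.p6) are shown because these elements are known at the promoters of such genes. A window ran from 250 bases before to 50 bases from a listed RefSeq start, and 43 of the 51 listed genes had one. That start is not always the outer end of the gene. The windows of Kif2c, Cdca3 and Ncapd2, for example, lie inside the annotated gene. The listed genes with no window are Ccna2, Aurkb, Cdc25c, Kif20a, Tpx2, Dlgap5, Incenp and Smc4. The motifs searched on both strands were TTTGAA (the CHR core) and CCAAT. Of the genes with a window, 31 (72.1%) held TTTGAA, against 20.2% of 27025 genes with a window in the whole table, and 33 (76.7%) held CCAAT, against 41.1%. Both motifs lay in 28 member windows (65.1%), against 7.97% of all genes. Replication genes listed for comparison held CCAAT in 62.5% and TTTGAA in 12.5% of 40 genes, and other genes of mitosis held them in 60% and 35.5% of 110. Among the members that were lower in knockout and had a window, 21 of 25 held TTTGAA, and among members with no tested probe 7 of 13 did. Tpx2, the tested member that did not pass, has no window, and the members with no tested probe are unmeasured. A match is a description of these letters in this window, with no test, and its part in the fall was not tested.

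The windows below are those of Top2a and Kif23, the members with the most negative fitted log2 changes, Cdk1 and Plk1, the kinases of mitotic entry, and Mad2l1, which was lower in knockout and whose window held neither motif. They are chr11:99024140-99024439 (minus strand), chr9:61946750-61947049 (minus strand), chr10:69352863-69353162 (minus strand), chr7:122159185-122159484 (plus strand) and chr6:66534971-66535270 (plus strand), written 5′ to 3′ along the gene. Capitals mark each match to TTTGAA or CCAAT or to their reverse complements, TTCAAA and ATTGG, and matches of different motifs did not overlap. Top2a held 6 CCAAT and 2 TTTGAA matches, Cdk1 held 3 and 2, and Kif23 and Plk1 held 1 of each.
Top2a: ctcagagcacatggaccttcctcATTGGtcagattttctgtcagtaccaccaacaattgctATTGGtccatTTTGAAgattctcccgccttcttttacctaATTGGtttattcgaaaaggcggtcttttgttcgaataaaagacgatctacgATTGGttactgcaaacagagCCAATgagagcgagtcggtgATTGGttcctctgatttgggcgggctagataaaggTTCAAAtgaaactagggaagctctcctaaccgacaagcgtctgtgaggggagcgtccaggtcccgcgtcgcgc
Kif23: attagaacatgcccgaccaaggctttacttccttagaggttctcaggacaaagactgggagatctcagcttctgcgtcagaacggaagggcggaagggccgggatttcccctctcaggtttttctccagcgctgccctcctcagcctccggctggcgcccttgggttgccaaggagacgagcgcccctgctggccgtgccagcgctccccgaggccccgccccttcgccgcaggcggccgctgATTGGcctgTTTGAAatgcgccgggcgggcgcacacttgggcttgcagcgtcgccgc
Cdk1: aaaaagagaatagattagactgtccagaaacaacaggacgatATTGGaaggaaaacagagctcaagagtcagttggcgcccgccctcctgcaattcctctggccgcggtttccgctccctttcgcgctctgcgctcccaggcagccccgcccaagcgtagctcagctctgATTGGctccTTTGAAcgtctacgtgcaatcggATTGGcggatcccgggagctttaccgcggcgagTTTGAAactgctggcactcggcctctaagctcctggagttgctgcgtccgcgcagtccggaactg
Plk1: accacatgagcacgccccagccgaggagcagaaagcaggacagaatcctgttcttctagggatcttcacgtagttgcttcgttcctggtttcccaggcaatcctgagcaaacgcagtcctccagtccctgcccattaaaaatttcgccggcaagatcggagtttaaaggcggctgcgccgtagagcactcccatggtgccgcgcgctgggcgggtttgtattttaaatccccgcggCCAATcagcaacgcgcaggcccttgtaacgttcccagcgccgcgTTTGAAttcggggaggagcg
Mad2l1: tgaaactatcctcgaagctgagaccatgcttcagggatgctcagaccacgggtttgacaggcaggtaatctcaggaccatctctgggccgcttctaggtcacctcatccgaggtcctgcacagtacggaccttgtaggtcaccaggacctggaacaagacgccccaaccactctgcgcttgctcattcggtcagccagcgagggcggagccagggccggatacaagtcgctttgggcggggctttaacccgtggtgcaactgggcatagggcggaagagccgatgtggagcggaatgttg

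**Figure D1:**
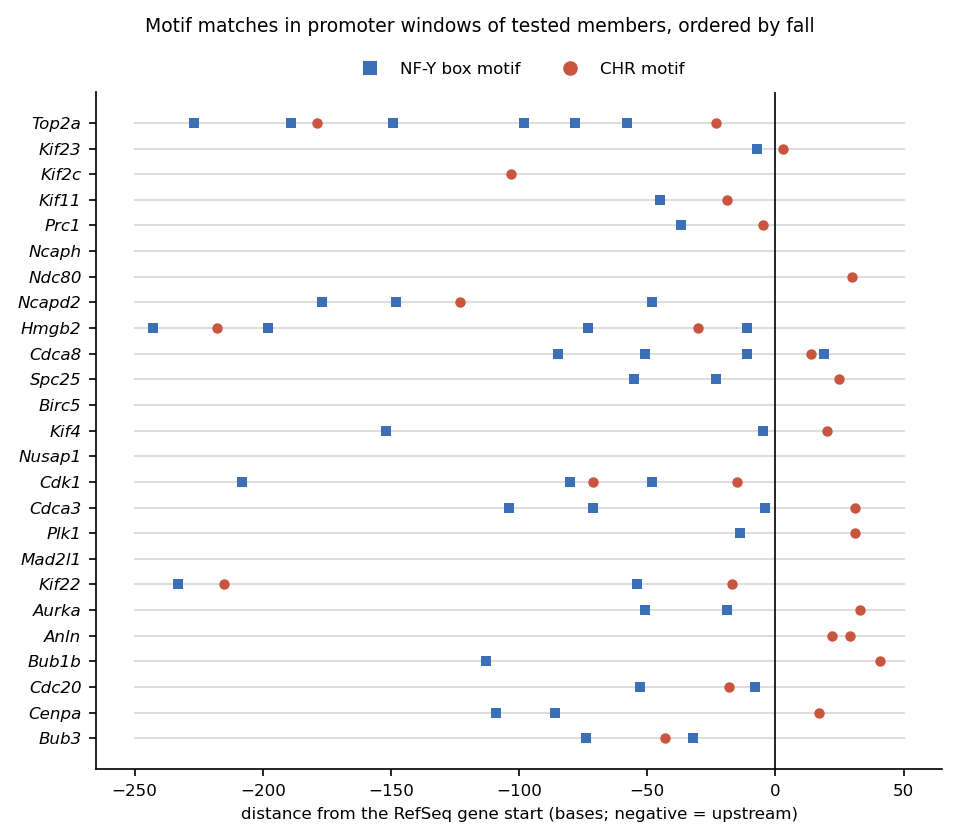
Position of each NF-Y box (CCAAT) and CHR (TTTGAA) match on either strand, in bases from the RefSeq start on which the window was set, for the 25 tested members that have a window, ordered by fitted log2 change with the most negative at the top (1 window per gene). CHR matches sit mostly within the last 50 bases before the start or in the transcribed part of the window, and Ncaph, Birc5, Nusap1 and Mad2l1 show no match.

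Intensities were corrected and quantile normalized and are given as log2 values, on which a step of 1 is a doubling. A probe counted as detected where its detection p was under 0.05, and testing took the probes detected on 4 or more of the 8 arrays (12040 probes, 8302 genes). Between 11697 and 11987 probes were detected per array, and precision is limited by having 4 arrays per genotype. The only detected Atp2b4 probe had a log2 mean of 6.89 ± 0.14 in wild type and 6.95 ± 0.27 in knockout (SD, n = 4 each), so it did not separate the genotypes, and the deleted part of Atp2b4 is not stated. The direction of every change therefore rests on the array labels.

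Of the 51 genes, 28 had a tested probe, 16 had probes that missed the filter and 7 had no probe analysed. In the limma fit across all tested probes, with Benjamini-Hochberg adjusted p under 0.05 as the threshold, 27 of the 28 tested genes were lower in knockout, 0 were higher and Tpx2 did not pass. Over all genes tested, 30.7% were called lower and 26.9% higher, 57.6% in either direction. The median log2 change of the tested members was -1.52 (2.86-fold lower), against -0.024 for all genes. Of the 28, 23 fell by at least 2-fold, as did 5.38% of all genes. All 4 knockout arrays lay below all 4 wild-type arrays for 27 members and for 28.9% of all genes. The filter admits a gene through the genotype where it is bright, so these counts do not stand for all members. Among the 23 members detected on all 8 arrays, a subset taken after the data were seen, 22 fell and Tpx2 did not pass, with a median of -1.51, and 31.3% of genes so detected were called lower. Fewer dividing cells in a sample and less of these RNAs per cell cannot be told apart in bulk arrays.

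**Figure D2:**
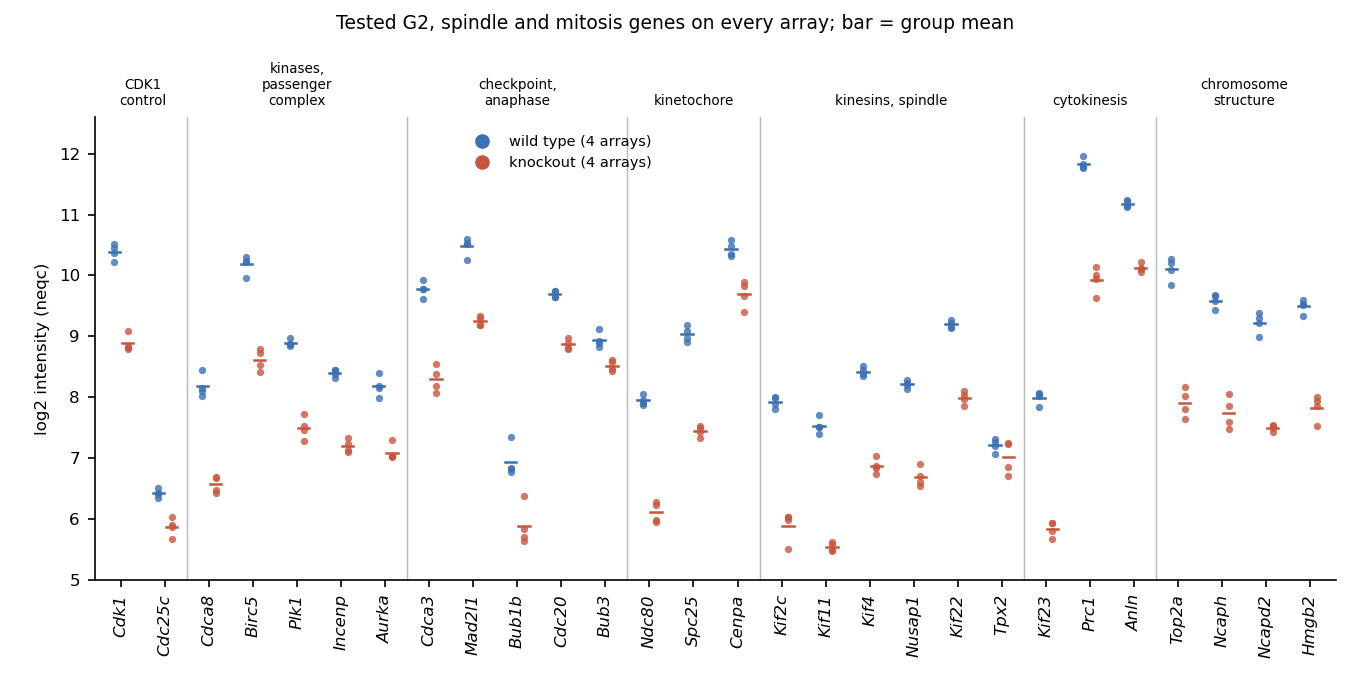
Log2 intensity of the representative probe of each of the 28 tested members on each array, grouped by role, with 4 wild-type arrays in blue, 4 knockout arrays in red and bars at the group means. The groups do not overlap for any member except Tpx2, and knockout values of Kif23, Kif2c, Kif11, Bub1b and Cdc25c include arrays not above background.

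Where values are listed below, they are log2 intensities of replicates 1 to 4 in order, and each log2 change is knockout minus wild type with its standard error (SE) from the moderated fit. Cyclins and the control of Cdk1 were the least covered role, with 2 of 7 genes tested. Cdk1, the kinase that drives entry into mitosis, read 10.23, 10.36, 10.44 and 10.52 in wild type and 9.09, 8.83, 8.80 and 8.82 in knockout. Its groups did not overlap, and replicate 1 was the highest knockout array (log2 change -1.51, SE 0.088, limma adjusted p = 2.97e-07, 2.84-fold lower). Cdk1 had 2 other probes, both undetected throughout. Cdc25c, a phosphatase that activates Cdk1, was dim throughout at 6.42, 6.34, 6.51 and 6.41 in wild type and 5.66, 5.87, 6.04 and 5.89 in knockout, and was not detected on 1 knockout array. It too was lower on every knockout array (log2 change -0.55, SE 0.083, adjusted p = 0.000282). The other Cdc25c probes were detected on 1 and on 0 wild-type arrays and on 0 knockout arrays. The cyclins Ccna2, Ccnb2 and Ccnf were not above background on any array, and Cdc25b, another Cdc25 phosphatase, was detected on 1 wild-type array only.

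The mitotic kinases and the chromosomal passenger complex had 5 of 7 genes tested, and all 5 fell. Plk1, the Polo kinase needed for spindle assembly and mitotic entry, read 8.84, 8.87, 8.87 and 8.98 in wild type and 7.73, 7.28, 7.53 and 7.46 in knockout. The knockout arrays spread more widely than the wild-type ones and stayed below them (log2 change -1.39, SE 0.091, adjusted p = 6.62e-07, 2.62-fold lower). Birc5 (survivin), the passenger subunit that docks the complex to centromeres, read 9.97, 10.22, 10.30 and 10.24 in wild type and 8.72, 8.42, 8.79 and 8.53 in knockout at its brightest probe. Its 3 probes all fell, with log2 changes of -1.57, -1.66 and -1.81 (adjusted p = 6.77e-07 for the brightest). Cdca8 (borealin), another passenger subunit, read 8.02, 8.10, 8.44 and 8.14 in wild type and 6.67, 6.43, 6.47 and 6.69 in knockout. The gap between its groups was 3.05-fold (log2 change -1.61, SE 0.10, adjusted p = 6.03e-07). Incenp, the scaffold of the complex, and Aurka, the spindle pole kinase, fell 2.30-fold and 2.13-fold (adjusted p = 2.72e-07 and 7.85e-06). Thus the 3 passenger subunits measured fell by 2.30 to 3.05-fold at their brightest probes. Nek2, a centrosome kinase, was not above background.

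For the spindle checkpoint and the ubiquitination steps of anaphase, 5 of 9 genes were tested and all 5 fell, by smaller amounts than the other roles except the Cdk1 group (median log2 change -1.05). Mad2l1, the checkpoint protein that holds Cdc20 inactive, read 10.26, 10.51, 10.60 and 10.54 in wild type and 9.30, 9.33, 9.18 and 9.19 in knockout. Its groups stood 2.34-fold apart (log2 change -1.23, SE 0.083, adjusted p = 8.45e-07). Cdca3, a mitotic entry factor that works with a ubiquitin ligase, read 9.62, 9.77, 9.77 and 9.92 in wild type and 8.55, 8.06, 8.39 and 8.19 in knockout at its brightest probe (log2 change -1.47, SE 0.11, adjusted p = 1.67e-06). The second Cdca3 probe passed the filter through wild type only, and its limma adjusted p of 8.28e-07 comes from a fit that includes undetected values. In knockout it was undetected throughout, which gives a fall of at least 2.28-fold, a bound to which that p does not belong. Such a bound sets each undetected array to the higher of its own value and the lowest value of any detected probe on that array.

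Bub1b, the checkpoint kinase BubR1, read 6.77, 6.83, 6.81 and 7.34 in wild type and 6.38, 5.83, 5.70 and 5.64 in knockout, and was detected on 2 knockout arrays. Its spread was among the widest of the members, with replicate 4 standing above the other wild-type arrays and replicate 1 above the other knockout arrays (log2 change -1.05, SE 0.18, adjusted p = 0.000565). Cdc20, the activator of the anaphase promoting complex, was measured by 4 probes, all lower, with log2 changes from -0.83 to -0.67 (adjusted p from 7.75e-07 to 9.56e-05). Bub3, a checkpoint protein bound to Bub1 and BubR1, had the smallest fall that passed, at 1.34-fold (log2 change -0.42, SE 0.078, adjusted p = 0.00115). Bub1, Ttk (the kinase Mps1), Ube2c (the ubiquitin-conjugating enzyme of the anaphase promoting complex) and Pttg1 (securin) were not above background on any array.

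Centromere and kinetochore genes were tested in 3 of 6 cases, and all 3 fell. Ndc80, the microtubule-binding subunit that gives its name to the NDC80 complex, read 7.87, 7.90, 8.05 and 7.96 in wild type and 5.95, 6.23, 6.27 and 5.98 in knockout. Both genotypes were detected on every array, with a 3.57-fold gap (log2 change -1.84, SE 0.087, adjusted p = 6.68e-08). Its other probe was not above background. Spc25, which anchors the same complex to the kinetochore, read 9.08, 8.97, 9.19 and 8.90 in wild type and 7.50, 7.33, 7.53 and 7.43 in knockout, and its 2 probes gave nearly the same change, -1.59 and -1.55 (adjusted p = 8.63e-08 and 1.11e-06). Cenpa, the histone H3 variant that marks centromeres, fell less, at 10.36, 10.58, 10.32 and 10.48 in wild type and 9.89, 9.66, 9.83 and 9.40 in knockout (log2 change -0.74, SE 0.11, adjusted p = 0.000261, 1.67-fold lower). Nuf2, the partner of Ndc80, and Cenpe, a kinetochore kinesin, were not above background.

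Kinesins and spindle proteins had 6 of 9 genes tested, of which 5 fell. Kif2c (MCAK), which depolymerises microtubules at centromeres, read 8.0, 7.81, 7.98 and 7.89 in wild type and 6.03, 5.50, 5.98 and 6.02 in knockout. It was detected on 3 knockout arrays, and stood 4.11-fold lower, a value that rests in part on an undetected array (log2 change -2.04, SE 0.12, adjusted p = 2.71e-07). Kif11 (Eg5), the motor that pushes spindle poles apart, read 7.39, 7.51, 7.70 and 7.50 in wild type and 5.62, 5.47, 5.59 and 5.48 in knockout. No knockout array was above background, so the fall is given as at least 3.34-fold. The probe passed the filter through wild type only. Its limma adjusted p of 1.43e-08 comes from a fit that includes the undetected values and does not belong to this bound. Kif4, a chromosome-bound kinesin, read 8.38, 8.44, 8.51 and 8.34 in wild type and 7.03, 6.73, 6.87 and 6.84 in knockout at its brightest probe. Its 3 probes all passed, with log2 changes of -1.55, -0.92 and -1.21 (adjusted p = 7.63e-08, 4.23e-06 and 0.000127), so the size differed between probes and the direction did not. Nusap1, which bundles spindle microtubules, fell 2.89-fold at 1 of its 3 probes, the others not being above background, and Kif22, a chromosome-arm motor, fell 2.31-fold (adjusted p = 1.76e-07 and 2.59e-07).

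Tpx2, which targets Aurora A to the spindle, was the 1 tested member that did not pass. It read 7.31, 7.07, 7.20 and 7.26 in wild type and 7.24, 6.71, 6.86 and 7.23 in knockout. Knockout replicates 1 and 4 lay within the wild-type range and replicates 2 and 3 below it, so the groups overlapped (log2 change -0.20, 95% confidence interval from -0.48 to 0.071, limma adjusted p = 0.183). That interval does not reach the fall of any other tested member except Bub3, whose log2 change was -0.42. Hmmr and Dlgap5, both spindle microtubule proteins, were not above background on any array.

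Genes of the central spindle and cytokinesis had 3 tested of 6, and all 3 fell. Kif23 (MKLP1), the motor of the centralspindlin complex, read 7.84, 8.04, 8.07 and 8.02 in wild type and 5.93, 5.93, 5.67 and 5.80 in knockout. With only 2 knockout arrays detected, it stood 4.47-fold lower (log2 change -2.16, SE 0.081, adjusted p = 1.16e-08). Prc1, which bundles the antiparallel microtubules of the midzone, read 11.77, 11.84, 11.79 and 11.96 in wild type and 10.14, 9.63, 9.9998 and 9.95 in knockout. It stayed far above background in both genotypes while lying 3.76-fold lower in knockout (log2 change -1.91, SE 0.10, adjusted p = 1.78e-07). Anln (anillin), the scaffold of the contractile ring, read 11.24, 11.14, 11.23 and 11.12 in wild type and 10.22, 10.05, 10.12 and 10.10 in knockout at its brightest probe (log2 change -1.06, SE 0.063, adjusted p = 3.22e-07). Its second tested probe fell by 0.81 on the log2 scale (adjusted p = 8.76e-05) and its other probe was not above background. Kif20a and Ect2, which act at the midzone, were not above background.

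Chromosome structure genes had 4 of 7 tested, all 4 lower and detected on all arrays, with a median log2 change of -1.78. Top2a, the topoisomerase that untangles sister chromatids, read 9.84, 10.20, 10.28 and 10.09 in wild type and 8.16, 7.64, 7.81 and 8.02 in knockout. Among the 23 members detected on all 8 arrays its fall was the largest, at 4.58-fold (log2 change -2.20, SE 0.13, adjusted p = 2.72e-07), and it ranked 57th lowest of the 8302 genes by fitted log2 change. The falls of Kif23, Kif2c and Kif11 have no settled place beside it, since some or all of their knockout arrays were not above background. Ncaph, a condensin I subunit, read 9.43, 9.68, 9.58 and 9.66 in wild type and 8.05, 7.60, 7.47 and 7.86 in knockout, a 3.59-fold difference (log2 change -1.84, SE 0.12, adjusted p = 6.94e-07). Ncapd2, another condensin I subunit, read 8.99, 9.30, 9.38 and 9.21 in wild type and 7.54, 7.53, 7.42 and 7.50 in knockout at its brightest probe. Its 2 tested probes fell by different amounts, with log2 changes of -1.73 and -0.75 (adjusted p = 9.47e-08 and 0.000578), and its dimmest probe was detected on 2 wild-type arrays only. Hmgb2, a chromatin protein abundant in dividing cells, fell 3.17-fold (adjusted p = 5.39e-07). The Smc2 probe, for a core subunit of condensin, was not above background.

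**Figure D3:**
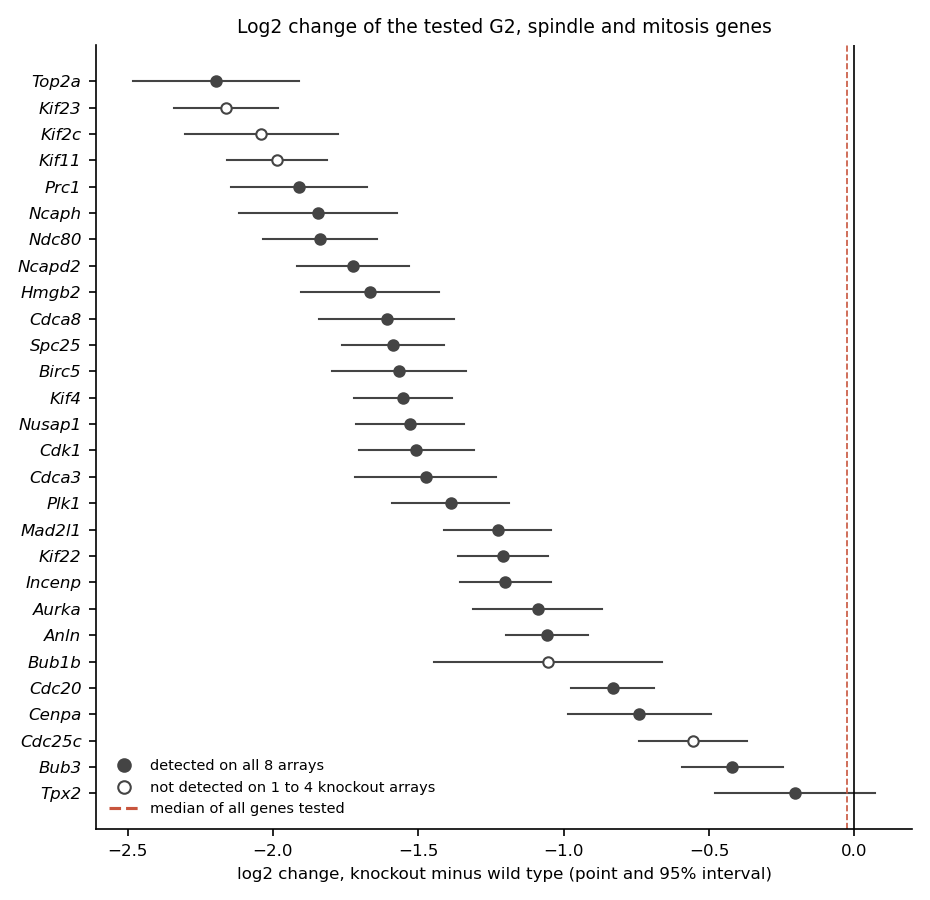
Log2 change (knockout minus wild type, horizontal axis) with its 95% confidence interval for the 28 tested members, filled where the probe was detected on all 8 arrays and open where 1 to 4 knockout arrays were undetected. Changes run from -2.20 for Top2a to -0.20 for Tpx2, whose interval alone crosses 0, and the dashed line marks the median of all genes tested at -0.024.

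At the level of probes, 39 of the 65 were tested and 38 of these were lower in knockout, 0 higher, against 30% lower and 26.3% higher of all tested probes. For the 7 members with more than 1 tested probe, all tested probes fell. Of the 26 probes that missed the filter, 23 were not detected on any array and the other 3 were detected on 1 or 2 wild-type arrays and no knockout array. Cdk1, Cdc25c, Nusap1, Anln, Ndc80 and Ncapd2 had untested probes beside tested ones, so an undetected probe does not show that its gene was silent. The 16 members known only from probes that missed the filter are Ccna2, Ccnb2, Ccnf, Cdc25b, Nek2, Bub1, Ttk, Ube2c, Pttg1, Cenpe, Nuf2, Hmmr, Dlgap5, Kif20a, Ect2 and Smc2, and no change is given for them.

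**Figure D4:**
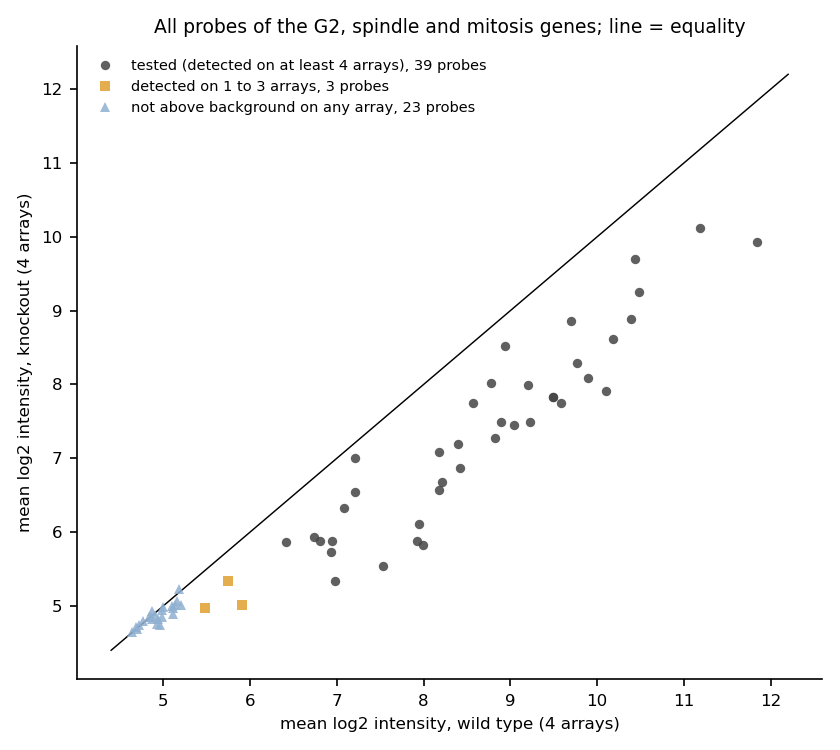
Mean log2 intensity in wild type (horizontal) against knockout (vertical) for all 65 probes of the members, with the line of equality, so points below the line are lower in knockout. The 39 tested probes lie below the line, the 3 probes detected on 1 or 2 arrays lie below it near background, and the 23 undetected probes gather around it at the dim end.

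Arrays of a genotype also differed from each other in the level of the members. Averaged over the 28 tested members after centring each gene on its mean over the 8 arrays, wild-type replicates 1 to 4 stood at 0.60, 0.69, 0.76 and 0.74 and knockout replicates at -0.56, -0.78, -0.72 and -0.73. Within the genotypes, wild-type replicate 1 was the lowest of its group for 20 of the 28 genes and knockout replicate 1 was the highest of its group for 19. These differences within a genotype were small beside the gap between the genotypes.

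Other genes of mitosis, 135 listed and 81 tested of 111 on the array, gave 60 lower, 5 higher and 16 that did not pass, with a median log2 change of -0.68. The shares over all genes tested were 30.7% lower and 26.9% higher. By list, 15 of 24 mitotic regulators and anaphase promoting complex genes, 16 of 19 kinetochore genes, 15 of 22 spindle and cytokinesis genes and 14 of 17 cohesin and condensin genes fell. The kinases Pbk and Melk fell with log2 changes of -2.14 and -1.49 (adjusted p = 7.01e-08 and 4.81e-06), Melk being detected on 2 knockout arrays. Among kinetochore genes the log2 change was -1.43 for Cenpi and -1.53 for Cenpm, the latter detected on 3 knockout arrays, and the spindle motor Kif15 changed by -1.90 (adjusted p = 1.24e-06, 6.34e-05 and 9.54e-08). The kinetochore gene Spc24, named after its values were seen, differed between probes. Its brightest probe did not pass at -0.017 (adjusted p = 0.898), and the other, detected on 3 knockout arrays, fell by -1.19 (adjusted p = 0.000323). Esco2, which acetylates cohesin, changed by -2.28, and Lmnb1 (lamin B1), which lines the nucleus, by -1.72 (adjusted p = 3e-08 and 2.22e-07), Esco2 being detected on 3 knockout arrays. Stmn1 (stathmin), a microtubule destabiliser, was undetected in knockout, a fall of at least 2.34-fold. The 5 that rose, named after their values were seen, were Ensa, Cdc14b, Mad2l1bp, Kif3a and Ndel1, by 0.26 to 0.52 at their brightest probes. The other Kif3a probe, also detected on all 8 arrays, did not pass and had the opposite sign (log2 change -0.09, adjusted p = 0.283). Of the 8 tested core subunits of the anaphase promoting complex, also singled out after their values were seen, Anapc2, Anapc7, Cdc16 and Cdc27 did not pass, with log2 changes of 0.12, -0.017, -0.091 and 0.19, and Anapc4, Anapc5, Anapc13 and Cdc23 fell, with -0.38, -0.32, -0.18 and -0.47.

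Of 15 tested regulators that act on mitotic promoters, 10 fell, 3 rose and 2 did not pass (median log2 change -0.27), where 30.7% of all genes tested fell and 26.9% rose. Mybl2 (B-Myb), detected on 3 knockout arrays, had a log2 change of -2.02, and Foxm1, the activator of G2 and mitosis genes, one of -1.19 (adjusted p = 1.91e-08 and 1.44e-05). The pocket protein Rbl1 (p107) changed by -1.67 (adjusted p = 1.54e-06). Among the E2F factors, E2f1 and E2f2 fell, with log2 changes of -0.27 and -1.58 (adjusted p = 0.0114 and 4e-05), E2f2 being detected on 1 knockout array. The 3 regulators that rose were E2f3, E2f5 and E2f6, by 0.34, 0.51 and 0.24 (adjusted p = 0.00276, 0.000408 and 0.0132). E2f4, the main E2F of DREAM, did not pass at a change of 0.038 (adjusted p = 0.573), nor did Tfdp2, an E2F partner, at -0.21 (adjusted p = 0.0865). The Tfdp2 value is that of its brightest probe, and its probes differed in call. Another was lower at -0.29 (adjusted p = 0.0109), and the remaining one did not pass at -0.036 (adjusted p = 0.815). The NF-Y subunits Nfyb and Nfyc fell, with log2 changes of -0.22 and -0.49 (adjusted p = 0.0249 and 8.5e-05). Also on this list, Lin54 was lower at -0.24 (adjusted p = 0.0142). Lin37, Lin52, Rbl2, Nfya and E2f7 were not above background on any array and are unmeasured.

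DNA replication genes, the other cell cycle programme, fell in 40 of 40 tested cases at their brightest probes, with a median log2 change of -1.38. Of their 56 tested probes, 54 were lower, against 30% of all tested probes. The 2 that did not pass were dimmer probes of Lig1 and Tipin, at -0.21 and 0.23 (adjusted p = 0.263 and 0.0989). All genes tested had a median of -0.024, and 30.7% of them fell. Over genes detected on all 8 arrays, the medians were -1.51 for the members, -1.38 for replication and -0.56 for the other mitosis genes. All genes so detected had a median of -0.027, and 31.3% of them fell. The lists were not tested against each other, and their values come from the same arrays.

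**Figure D5:**
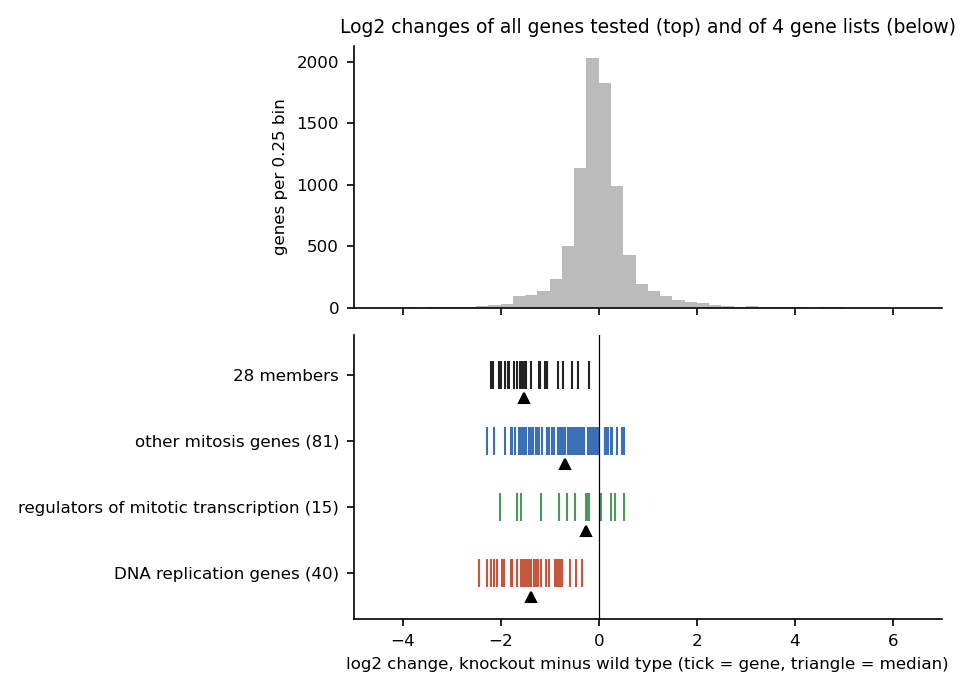
Number of genes per 0.25-wide bin of log2 change (knockout minus wild type) for all 8302 genes tested, above ticks for the 28 members, 81 other mitosis genes, 15 regulators of mitotic transcription and 40 DNA replication genes, with triangles at the list medians. The members and the replication genes lie wholly to the left of 0, while the other mitosis genes and the regulators reach both sides.

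Cell type markers moved between the same groups of arrays, where 26.9% of all genes tested were called higher and 30.7% lower. Of the smooth muscle markers, Acta2, Tagln, Smtn, Lmod1, Mustn1, Cald1 and Tpm2 were detected on all arrays, Myh11 and Mylk on knockout arrays only, and Cnn1 and Synpo2 on none, with Des and Myocd on 1 knockout array each. Of 9 tested, 8 rose and Smtn fell, and their summed intensity was 43133 to 49265 on the wild-type arrays and 82538 to 86315 on the knockout arrays. Most of that sum came from the brightest Acta2 probe, which rose 1.78-fold, while the other 3 Acta2 probes rose 4.37 to 6.91-fold. Adventitial fibroblast markers rose in 10 of 11 tested cases of 13 on the array, and the sum was 4024 to 4304 on the wild-type arrays and 59515 to 63109 on the knockout arrays, Lum being undetected in wild type and Dpp4 and Col14a1 on every array. Dcn (decorin) rose by 6.77 and Igfbp6 by 4.95 on the log2 scale (adjusted p = 3.62e-10 and 1.92e-10). Of 10 endothelial markers on the array, Flt1 rose and Plvap fell, Pecam1, Cdh5, Kdr, Tek, Vwf and Tie1 were not above background on any array, and Emcn and Nos3 missed the filter. Emcn was detected on 2 wild-type and 0 knockout arrays, with every knockout array below every wild-type array (log2 change -0.9991, not tested), and Nos3 on at most 1 wild-type and 3 knockout arrays per probe. The summed intensity of the tested endothelial markers was 272.4 to 310.4 in wild type and 343.5 to 350.6 in knockout. Of 9 leukocyte markers, Cd14 was detected on all arrays and fell, while Cd3e and Lyz2 were called higher but detected on knockout arrays only. Ptprc, Adgre1, Itgam, Cd79a, Cd52 and Tyrobp were not above background. The summed intensity of the tested leukocyte markers was 248.9 to 355 in wild type and 259.8 to 273.6 in knockout. The part of these markers, and of the early G1 gate, in the fall of the mitosis genes was not tested.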

How the data were processed

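Expression was measured on 8 Illumina mouse bead arrays, 4 per genotype, grouped by sample title. Per the labels, biotinylated cRNA was made from total RNA of sorted cells. The authors deposited a signal intensity and, per the file headers, a detection p-value for all 25697 probes of every array. Between 28.42% and 29.69% of intensities were below 0, so background had been subtracted before deposit. What software did this is not stated in the labels or headers. A second deposited table holds log2 values, the same sorted values in every column (median 6.05), and served as an alternative only.

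Intensities were processed as in neqc of limma 3.58.1 (R 4.3.3), with an offset of 16, quantile normalization and log2. Probes with detection p under 0.05 on at least 4 arrays were tested with lmFit and eBayes, without a block, with Benjamini-Hochberg adjustment over 12040 probes. The brightest tested probe stood for its gene. Probes were named by the platform annotation, updated by gene identifier to GRCm38.p6; 23978 had a symbol and 1719 had none. Values on every array are given for Cdk1, Plk1, Top2a, members that did not pass and, per role, up to 3 past the threshold with the largest change; other lists name up to 4 this way. Members and lists were chosen with earlier results of these data known. The fit was tested on simulated data. Promoter windows came from RefSeq. Figures used matplotlib 3.10.9. Same-numbered arrays did not deviate together (correlations of deviations 0.087, 0.023, -0.029 and 0.010).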

Additional observations from a re-analysis of the deposited data

Results flagged for a closer look

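Over the 39 tested probes of the members and the members' mean, 80 groups of 4 arrays were examined for an array far from the other 3, and 4 had a gap above Dixon's 95% critical value, while chance at 1 in 20 would give 4.0. Cdk1 stood at a log2 intensity of 9.09 on knockout replicate 1, where the other knockout arrays lay between 8.80 and 8.83. Aurka stood at 7.29 on the same array, against 7.01 to 7.03 on the others. Bub1b stood at 7.34 on wild-type replicate 4, against 6.77 to 6.83. Kif2c stood at 5.50 on knockout replicate 2, where it was not detected, against 5.98 to 6.03. Each of these 4 arrays still lay on its genotype's side of the other group for its gene.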

How the results depend on the processing

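Across 19 alternatives, from 26 to 30 members were called lower in knockout and 0 higher, and all 531 values of the 28 tested members kept their direction and their side of the threshold. Tpx2 did not pass under any of them (adjusted p from 0.078 to 0.446). The median log2 change of -1.52 became -1.32 with an offset of 50, -1.39 in the deposited log2 table and -1.06 without the filter on dim probes, where it covers 44 members and the added ones are near background; it ran from -1.59 to -1.49 when each array was left out in turn. Leaving out arrays kept 27 members lower, from 56 to 61 other mitosis genes, from 9 to 10 regulators and from 39 to 40 replication genes, all with the tested probes held fixed. Without the filter, 30 of 44 members passed, including Ccna2, Smc2 and Cdc25b, of which only Cdc25b was detected, on 1 array. Whether the replicate numbers pair the arrays is not known, and with the replicate number as a block 27 members were lower and 0 higher. Dimness limits the 5 members with undetected knockout arrays, and the 16 with no tested probe stay unmeasured.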
